A study of Mus musculus with 2 samples.

Results

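Genes of glycolysis and of the hypoxia response were followed through the cells of a mouse colorectal tumour, with and without a compound that the study's title ties to inhibition of PHGDH, an enzyme of serine synthesis. The set held 30 of the 32285 genes in the files, taken by symbol. It was described as 16 glycolysis members (glucose uptake, the glycolytic enzymes and lactate export) and 14 other hypoxia members. CT26, a colon carcinoma line of BALB/c mice, was grown under the skin of wild-type BALB/c mice aged 5 weeks. Dosing began at a tumour size of about 100 cubic millimetres, and each mouse received either vehicle or WQ-2101, 20 mg/kg into the peritoneum every day. Tumours were taken 17 days after implantation, dissociated with enzymes and read as droplet single-cell libraries that count the 3′ ends of transcripts. Each group had 1 library, both labelled as the same batch, and no source used here says how many mice a library pools. No sort before loading is recorded.

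Glycolysis splits glucose into pyruvate and yields some ATP without oxygen. When oxygen is scarce, the hydroxylases that mark hypoxia-inducible factor (HIF) for destruction lose activity, and HIF binds short promoter and enhancer elements of its targets. These include the glucose transporter Slc2a1 and most glycolytic enzymes, and genes that hold pyruvate out of mitochondria, remove mitochondria, modify collagen, buffer acid and store lipid. PHGDH draws its substrate from glycolysis, from the product of Pgk1 that Pgam1 would otherwise pass on.

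The vehicle library held 14374 barcodes and 184754398 UMIs (unique molecular identifiers, the counted molecules), and the WQ-2101 library 18142 and 185587327. After filters 13646 and 17328 cells stayed, and 73 barcodes occurred in both libraries. Cells were put into 10 classes by their own markers. The main ones were tumour cells (5955 vehicle and 7909 WQ-2101), macrophages and monocytes (4286 vehicle and 3635 WQ-2101) and T cells (509 vehicle and 591 WQ-2101). The tumour gate rested on Hmga2 (1245 and 1255 CPM), Krt14 (97.4 and 210.1 CPM) and Slurp1 (12.8 and 45.8 CPM). CPM is the UMIs of a gene in every 1000000 UMIs of a class. These 3 gate genes together stood at 1355 and 1511 CPM. Of the other tumour markers, Krt20 and Cldn4 had no UMI in these cells, Krt8, Krt18, Krt7, Krt19 and Epcam were at 0.212 CPM or less, and Cd24a, Prl2c2 and Prl2c3 were at 2.70 CPM or less. The epithelial keratins that usually define a colon carcinoma were thus at or near 0 in the cells called tumour here. The summed macrophage markers stood at 180.3 and 193 CPM in tumour cells, against 15743 and 13849.5 CPM in macrophages. In macrophages the 3 genes of the tumour gate were at 42.1 and 64.3 CPM. Cd24a, a tumour marker left out of the gate, was higher in macrophages than in tumour cells, at 108.9 and 48.8 CPM. Each class is a range of a marker score: 4.82% and 3.01% of tumour cells, and 2.29% and 3.49% of macrophages, lay within 1.2-fold of the cut. Cells in no class (2469 vehicle, 4752 WQ-2101) were left out, among them most of a cluster with both tumour and macrophage RNA that held 106 vehicle and 2948 WQ-2101 cells. Of this mixed cluster 18 vehicle and 421 WQ-2101 cells stayed in the tumour class, and 30 and 341 in the macrophage class. Without them the tumour medians given below were 0.38 for glycolysis and 0.66 for hypoxia, with 1 and 7 members past 1.5-fold as with them. Since a group is 1 library, the spread between mice is unknown and the groups were not tested against each other. The 95% intervals below cover counting error only.

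In tumour cells the levels of 15 of the 16 glycolysis members were higher in the WQ-2101 library, by moderate amounts. The summed level of all 16 was 6531 CPM in vehicle and 8395 CPM in WQ-2101 cells, a ratio of 1.29 (1.28 to 1.29). The median log2 ratio, taken after adding 5 CPM to both levels, was 0.39 over the 15 members that reached a mean of 5 CPM, against -0.02 over all 10000 genes that did. Of these 15 members 1, Pfkl, was 1.5-fold or more higher and 0 were lower by that much. Among all genes 0.87% were higher and 0.44% lower to that extent. A log2 ratio above 0 was found in 45.5% of all genes.

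Slc2a1, the basal glucose transporter, stood at 82.4 CPM in vehicle and 106 CPM in WQ-2101 tumour cells. Hexokinase traps glucose by phosphorylation. Its form Hk1 was at 48.9 and 65.5 CPM, and Hk2 at 48.3 and 57.7 CPM. Gpi1, the next enzyme, was at 196 and 247 CPM. These early steps differed by 1.19-fold to 1.34-fold. Phosphofructokinase commits sugar to glycolysis, and its liver-type subunit Pfkl was the member of the pathway that differed most, with 52.8 CPM in vehicle and 92.6 CPM in WQ-2101 cells, 1.75-fold higher (1.70 to 1.81). The platelet-type subunit Pfkp was at 56.0 and 77.4 CPM, a ratio of 1.38. Pfkfb3, which makes the activator of phosphofructokinase, was scarce, at 5.03 and 4.48 CPM, and its ratio of 0.891 had an interval that holds 1 (0.789 to 1.01). It was the single glycolysis member with a ratio under 1 and the one left out by the minimum.

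The later steps, from the splitting of the sugar onward, were each higher in WQ-2101 tumour cells. Aldolase Aldoa splits the sugar and was at 515 and 671 CPM. Tpi1, which interconverts its products, was at 419.7 and 583 CPM. The dehydrogenase Gapdh was at 1621 and 2136 CPM. Pgk1, the first ATP-yielding step, came next to Pfkl in size, with 535 and 791 CPM, a ratio of 1.48 (1.46 to 1.49) and a log2 ratio of 0.56, just under the 1.5-fold line. Its successor Pgam1, the mutase that takes the product onward, differed least of the members past the minimum, at 595 and 663 CPM, a ratio of 1.11 (1.10 to 1.13). Enolase Eno1 was at 218 and 283 CPM. Its near-identical copy Eno1b, which can share reads with it, was at 21.9 and 24.1 CPM, and Gapdh, Pgam1, Pkm, Ldha and Tpi1 also have processed copies in the genome that can take some of their reads. Pyruvate kinase Pkm was at 1363 and 1601 CPM, a ratio of 1.17. Ldha, which turns pyruvate into lactate, was at 746 and 979.6 CPM, and the lactate exporter Slc16a3 at 27.7 and 38.2 CPM. The ratios from Aldoa to Slc16a3, leaving aside Pgk1, Pgam1 and Pkm, lay between 1.30 and 1.39.

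**Figure D1:**
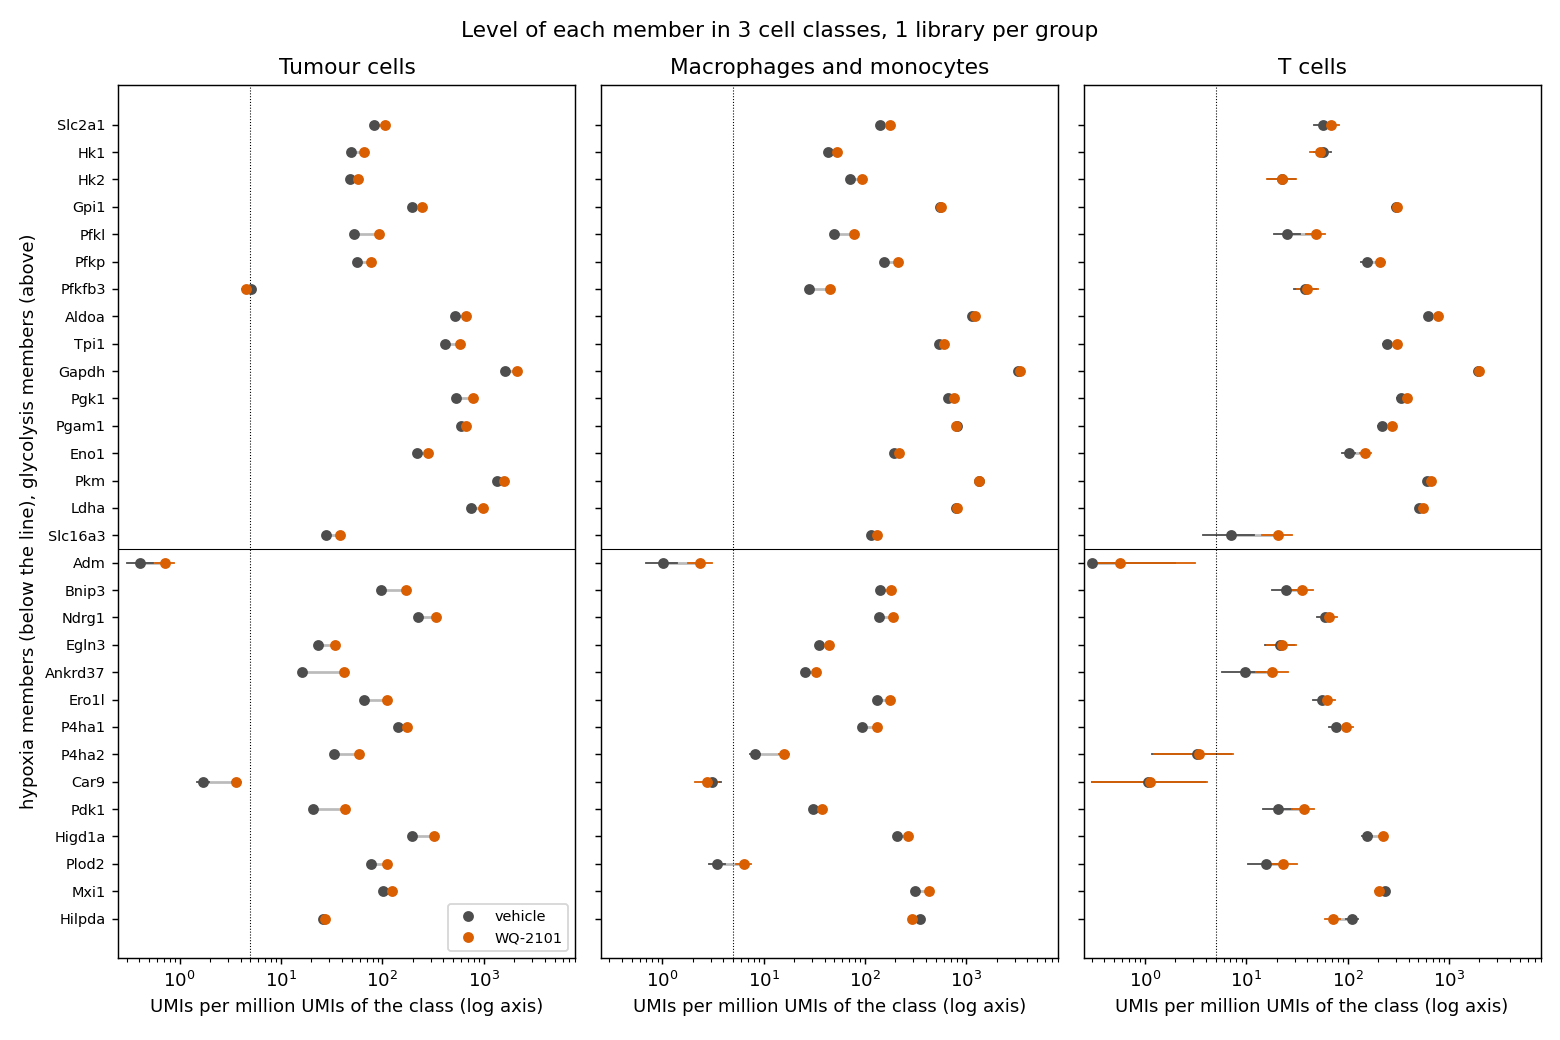
Level of each of the 30 members in tumour cells, macrophages and monocytes, and T cells, in CPM on a log axis. Grey points are the vehicle library and orange points the WQ-2101 library, bars are exact Poisson 95% intervals, the dotted line marks 5 CPM, and Adm, with no UMI in vehicle T cells, is drawn at the left edge. In tumour cells the orange point lies to the right for every member but Pfkfb3.

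The hypoxia members differed more than the glycolysis members in tumour cells. Their summed level was 1025 CPM in vehicle and 1564 CPM in WQ-2101 cells, a ratio of 1.53 (1.52 to 1.54). The median log2 ratio was 0.65 over the 12 members past the minimum, and 7 of these 12 were 1.5-fold or more higher, against 0.87% of all genes, with 0 lower. With every cluster of tumour cells given the same share in both libraries, the median was 0.48 and 3 members (Ankrd37, P4ha2 and Pdk1) stayed past 1.5-fold.

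Of the members past 1.5-fold, 3 encode proteins that act at mitochondria. Pdk1, the kinase that shuts off pyruvate dehydrogenase, had 20.9 CPM in vehicle and 42.4 CPM in WQ-2101 tumour cells, 2.02-fold higher (1.93 to 2.13). Bnip3, a receptor that sends mitochondria to autophagy, had 96.5 and 170.1 CPM, 1.76-fold (1.72 to 1.81). Higd1a, a small protein of the inner mitochondrial membrane, had 195 and 323 CPM, 1.66-fold (1.63 to 1.69). At equal cluster shares Pdk1 stayed past the line, while Bnip3 and Higd1a had log2 ratios of 0.52 and 0.53.

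Members that process proteins in the endoplasmic reticulum differed unevenly. Ero1l, the oxidase that drives disulphide formation, had 66.7 CPM in vehicle and 111 CPM in WQ-2101 tumour cells, 1.67-fold (1.62 to 1.72). P4ha2, an alternative catalytic subunit of collagen prolyl hydroxylase, had 33.1 and 59.4 CPM, 1.79-fold (1.72 to 1.87). Its partner gene P4ha1, the main catalytic subunit, had 144 and 174 CPM, 1.21-fold (1.19 to 1.24). The intervals of the 2 subunits did not overlap. Plod2, the lysyl hydroxylase that prepares collagen for cross-links, had 77.7 and 111 CPM, 1.43-fold, under the line.

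The remaining members act on signalling, growth, acid and lipid. Ankrd37, an ankyrin-repeat protein used as a marker of HIF activity, was the member that differed most in tumour cells, at 16.03 CPM in vehicle and 42.1 CPM in WQ-2101 cells, 2.63-fold (2.49 to 2.78), a log2 ratio of 1.16. Egln3, an oxygen-dependent hydroxylase that acts on HIF itself, had 23.1 and 34.4 CPM, 1.49-fold. Ndrg1, a stress-induced gene linked to growth arrest, had 222 and 339 CPM, a log2 ratio of 0.60, the called member closest to the line of 1.5-fold and under it in 4 of 12 alternatives (down to 0.51). Mxi1, an antagonist of MYC, had 101 and 126 CPM, 1.24-fold. Hilpda, which blocks lipid breakdown at lipid droplets, stood apart: 26.2 and 27.0 CPM gave a ratio of 1.03 with an interval that holds 1 (0.979 to 1.08). The surface carbonic anhydrase Car9 (1.71 and 3.64 CPM) and the vasodilator peptide Adm (0.411 and 0.713 CPM) were under the minimum. Both were read more often in WQ-2101 cells, Car9 with 187 and 429 UMIs and Adm with 45 and 84 UMIs.

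**Figure D2:**
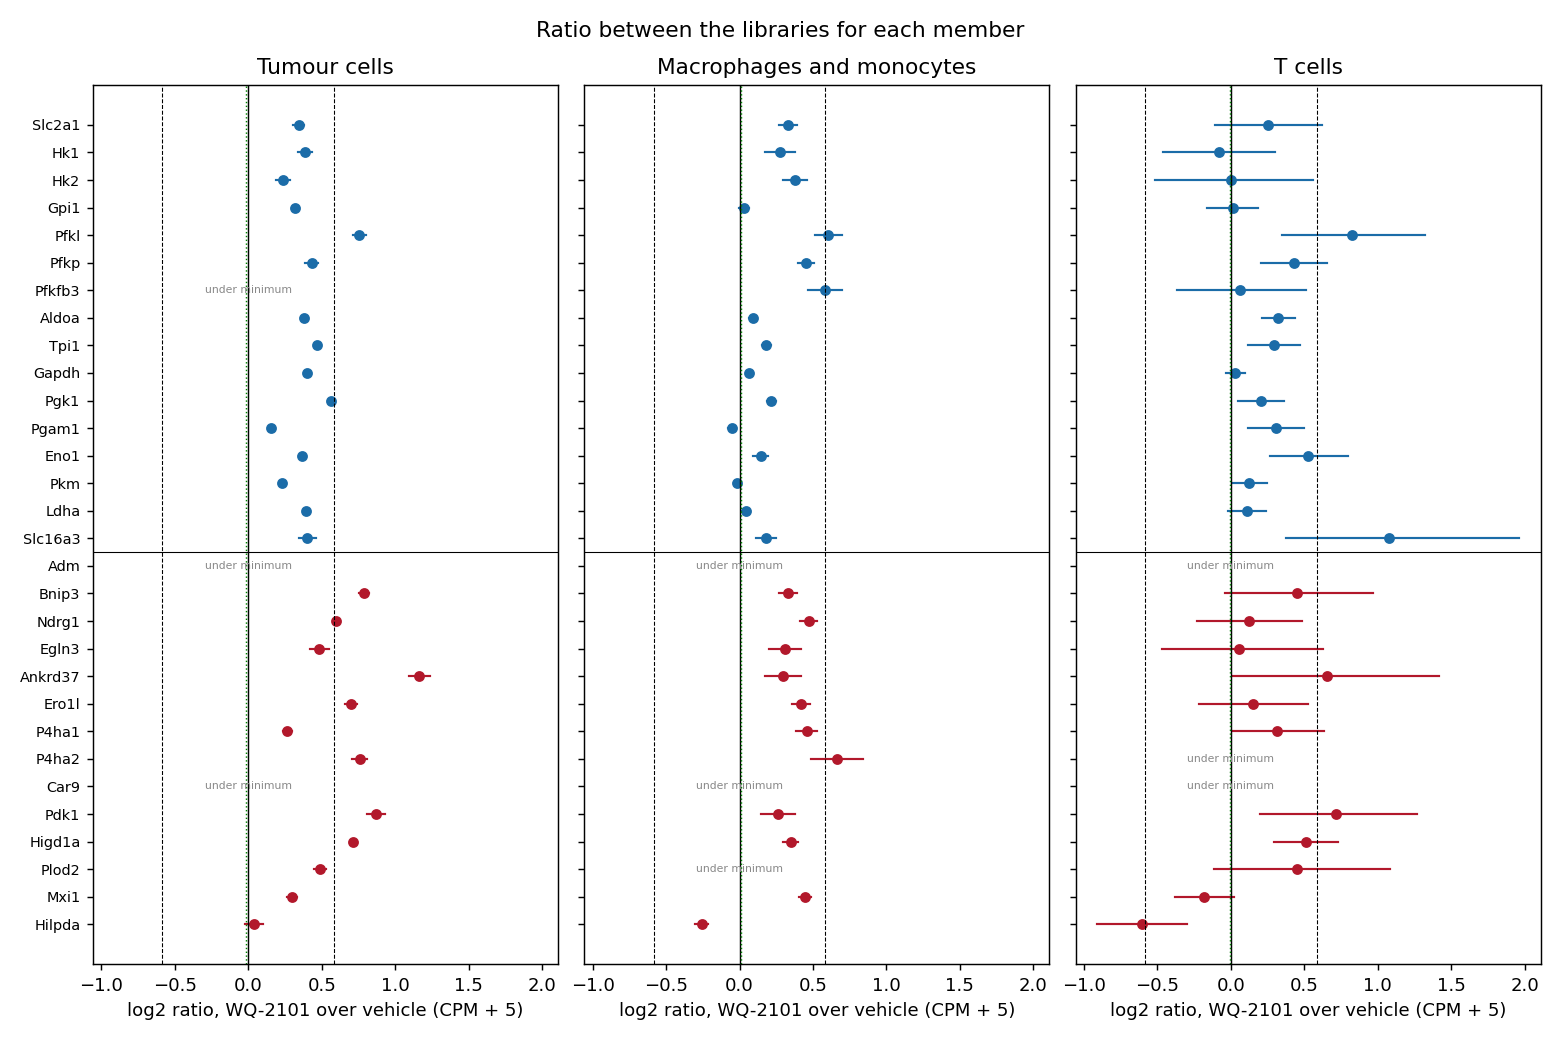
Log2 ratio of WQ-2101 over vehicle for each member, from CPM plus 5, in 3 classes, with blue for glycolysis members and red for hypoxia members. Bars are 95% intervals of counting error, dashed lines mark 1.5-fold in either direction, the dotted line is the median of all genes of the class, and members under a mean of 5 CPM carry no point. In tumour cells Ankrd37 lies farthest right at 1.16, and Hilpda lies near 0 at 0.04.

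HIF binds the core ACGTG or GCGTG on either strand. RefSeq promoter windows of build GRCm38.p6, each running from 250 bases before to 50 bases after a transcript start, were found for all 16 glycolysis members and 11 of 14 hypoxia members. Ndrg1, Ero1l and Plod2 had none. A core was present in a window of 14 of 16 glycolysis members (all but Gpi1 and Tpi1) and 11 of 11 hypoxia members. Over all genes with a window 46.7% held one, and 70.8% of the genes past the minimum in tumour cells. The longer form TACGTG was in 3 of 16 glycolysis members (Hk1, Gapdh and Pgam1) and 4 of 11 hypoxia members (Ankrd37, P4ha1, P4ha2 and Car9), against 3.67% of all genes and 4.80% of those past the minimum. A TACGTG match is also counted as an ACGTG match. The stretches below belong to members past 1.5-fold in tumour cells. They are printed 5′ to 3′ on the gene's strand and hold only bases before the start, with the cores on either strand in capitals. The Higd1a stretch also overlaps an antisense transcript, Gm47112.
Ankrd37 (chr8:45999851-46000100, minus strand): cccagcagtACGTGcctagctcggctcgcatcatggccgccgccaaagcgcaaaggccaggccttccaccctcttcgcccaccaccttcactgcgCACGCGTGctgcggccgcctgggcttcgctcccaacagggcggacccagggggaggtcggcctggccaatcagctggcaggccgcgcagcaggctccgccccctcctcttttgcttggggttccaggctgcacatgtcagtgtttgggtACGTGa
Bnip3 (chr7:138909522-138909638, minus strand): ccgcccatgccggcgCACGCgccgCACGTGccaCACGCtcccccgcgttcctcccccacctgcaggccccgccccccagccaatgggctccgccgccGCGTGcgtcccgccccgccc
P4ha2 (chr11:54100802-54100874, plus strand): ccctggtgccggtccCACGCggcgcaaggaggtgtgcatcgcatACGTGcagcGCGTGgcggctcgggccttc
Pdk1 (chr2:71873131-71873165, plus strand): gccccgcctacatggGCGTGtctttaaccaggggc
Higd1a (chr9:121857843-121857881, minus strand): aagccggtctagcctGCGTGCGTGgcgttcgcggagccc
Pfkl (chr10:78009887-78009921, minus strand): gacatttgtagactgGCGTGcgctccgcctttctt
Cores lay in 4 places in the Ankrd37 stretch, 5 in that of Bnip3 and 3 in that of P4ha2, some of them overlapping, 2 in that of Higd1a and 1 each in those of Pdk1 and Pfkl. A match describes letters and is not evidence of binding in these cells.

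The genes that control HIF differed little in tumour cells. Over the 9 of 12 HIF regulators past the minimum, the median log2 ratio was 0.06 and 0 passed 1.5-fold. Hif1a, the oxygen-regulated subunit, was at 108 CPM in vehicle and 117 CPM in WQ-2101 cells, and Egln1, the main hydroxylase that marks it, at 108 and 128 CPM. Of 23 genes past the minimum in a further hypoxia list of 30, 3 were 1.5-fold or more higher and 0 lower, with a median of 0.25. They were Trib3, a stress-response pseudokinase (15.2 and 32.3 CPM), Ak4, a mitochondrial adenylate kinase (7.37 and 15.4 CPM), and Ddit4, an inhibitor of mTOR signalling (16.6 and 28.8 CPM). Vegfa, the angiogenic growth factor, was at 151 and 179.8 CPM. Of these 23 genes 16 had a log2 ratio above 0. Angptl4 was lower, at 15.7 and 9.20 CPM, a ratio of 0.588 (0.544 to 0.634). Its log2 ratio after adding 5 CPM was -0.54, short of the line. Loxl2 was lower too, at 34.5 and 23.2 CPM, a ratio of 0.672. Of 22 genes past the minimum for other steps of glucose and pyruvate use, 0 passed 1.5-fold and the median was -0.03. The lists were drawn up with earlier results of these data known, and their medians are descriptions.

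In macrophages and monocytes most members were higher in the WQ-2101 library too, with sums and medians that differed less than in tumour cells. The difference between the classes was not tested. Some members had larger log2 ratios in macrophages than in tumour cells: P4ha1 (0.46 and 0.27), Mxi1 (0.45 and 0.30), Hk2 (0.38 and 0.23) and Pfkp (0.45 and 0.43). Pfkfb3, under the minimum in tumour cells, was also higher in WQ-2101 macrophages. The summed glycolysis level was 9871 CPM in vehicle and 10481 CPM in WQ-2101 cells, a ratio of 1.06 (1.06 to 1.07), and the median log2 ratio over all 16 members was 0.18. For the hypoxia members the sums were 1473 and 1798 CPM, a ratio of 1.22 (1.205 to 1.24), with a median of 0.35 over the 11 members past the minimum. The median over all 9338 genes was 0.01. A log2 ratio above 0 was found in 14 of 16 glycolysis and 10 of 11 hypoxia members, beside 51.6% of all genes. In each list 1 member was 1.5-fold or more higher and 0 were lower, where 1.42% of all genes were higher and 0.546% lower.

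The called members were Pfkl, at 49.4 CPM in vehicle and 77.6 CPM in WQ-2101 macrophages (log2 ratio 0.60), and the collagen hydroxylase subunit P4ha2, at 8.24 and 15.9 CPM (0.66). P4ha2 was under the line in 3 of 12 alternatives: 0.48 in cells of 10000 to 20000 UMIs, 0.53 with classes from clusters and 0.56 without the mixed cluster. Pfkfb3 was just short of the line, at 28.3 and 44.8 CPM (0.58). At the low end were Pgam1, at 818 and 790.3 CPM with a ratio of 0.966 (0.948 to 0.985), and Pkm, at 1339 and 1323 CPM with 0.988 (0.974 to 1.00). Hilpda was the hypoxia member with the lowest ratio, 346 and 288 CPM or 0.833 (0.808 to 0.859), and the single one past the minimum that was lower in WQ-2101 macrophages. Of the members past 1.5-fold in tumour cells, Ankrd37 was at 25.9 and 32.9 CPM, Pdk1 at 30.7 and 37.8 CPM, and Bnip3 at 141 and 179 CPM. Among the related lists, of 25 further glucose genes past the minimum 1 was lower, the lactate dehydrogenase subunit Ldhb (20.3 and 11.7 CPM), and of 9 HIF regulators 0 passed the line.

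By role, Slc2a1 was at 141 and 178 CPM in macrophages, and the hexokinases Hk1 and Hk2 at 43.1 and 53.3 CPM and 71.6 and 94.6 CPM. Gpi1 was at 547 and 558 CPM, and Pfkp, with the higher share of phosphofructokinase UMIs in this class, at 155 and 213 CPM. Among the later enzymes Aldoa was at 1142 and 1215 CPM, Tpi1 at 534 and 607 CPM, Gapdh at 3252 and 3404 CPM, Pgk1 at 652 and 759 CPM and Eno1 at 195 and 216 CPM. Ldha was at 790.4 and 815 CPM and the lactate exporter Slc16a3 at 115 and 132 CPM. None of these passed 1.5-fold. Among the hypoxia members Mxi1 (309.5 and 424 CPM), Ndrg1 (136 and 191 CPM), Egln3 (34.9 and 44.4 CPM), Ero1l (132 and 178 CPM), Higd1a (206 and 264 CPM) and P4ha1 (94.3 and 131 CPM) were also below that line. Plod2, Car9 and Adm were under the minimum, at 3.47 and 6.38 CPM, 3.11 and 2.77 CPM and 1.01 and 2.38 CPM.

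T cells were fewer and shallower, with a median of 2903 and 2521 UMIs, so intervals were wide. The glycolysis sum was 5252 CPM in vehicle and 5862 CPM in WQ-2101 T cells, a ratio of 1.12 (1.09 to 1.15), and the hypoxia sum 791 and 869 CPM, 1.10 (1.02 to 1.18). Over 16 glycolysis members 2 were 1.5-fold or more higher and 0 lower, and over 11 hypoxia members 2 were higher and 1 lower. Of all 9593 genes past the minimum 3.47% were higher and 3.27% lower. Pfkl was again among them, at 25.4 and 48.7 CPM (47 and 86 UMIs), 1.92-fold (1.33 to 2.80). Slc16a3 was at 7.02 and 20.4 CPM, from only 13 and 36 UMIs. Pdk1 was at 20.5 and 36.8 CPM and Ankrd37 at 9.72 and 18.1 CPM, the latter with an interval of 1.02 to 3.53. The lowest glycolysis member was Hk1, at 56.7 and 53.3 CPM. Of 26 further glucose genes past the minimum 1 was higher, Ldhb (2.70 and 7.36 CPM), and 1 lower, the muscle enolase Eno3 (19.4 and 9.06 CPM). Of 11 HIF regulators and 18 further hypoxia genes 0 passed the line. Hilpda was lower, at 111 and 71.4 CPM, a ratio of 0.642 (0.510 to 0.805).

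Hilpda thus had a ratio near 1 in tumour cells and under 1 in macrophages and T cells. Pfkl was past 1.5-fold in all 3 classes. In macrophages it was close to the line, with log2 ratios of 0.56 at equal cluster shares and 0.58 with classes taken from clusters, both under it, and it stayed past it in the other 10 of 12 alternatives.

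**Figure D3:**
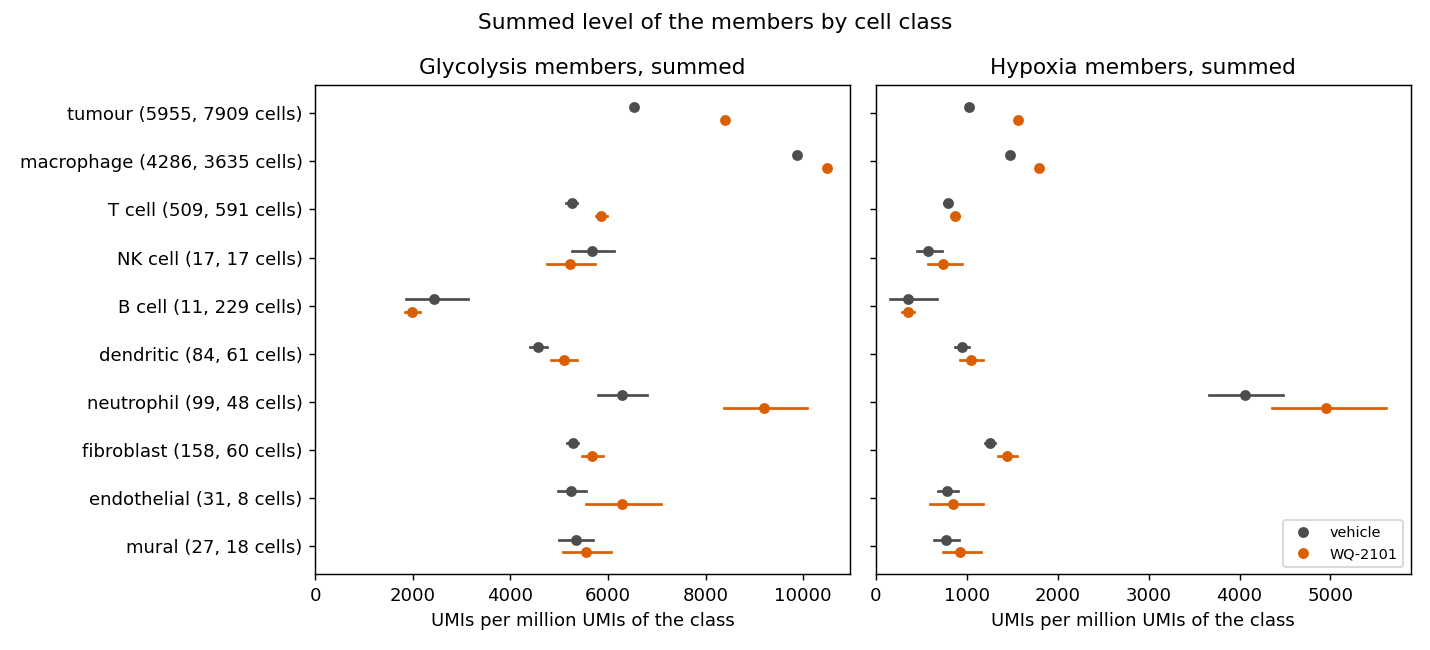
Summed level of the 16 glycolysis members and of the 14 hypoxia members in each of 10 cell classes, in CPM, with the number of vehicle and WQ-2101 cells beside each class. Grey is vehicle, orange is WQ-2101, and bars are exact Poisson 95% intervals. Macrophages had the highest glycolysis sum in both libraries (9871 and 10481 CPM) and neutrophils the highest hypoxia sum (4055 and 4954 CPM).

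Across all classes, macrophages had the highest summed glycolysis level and neutrophils the highest summed hypoxia level in both libraries. The neutrophil hypoxia sum of 4055 CPM in vehicle and 4954 CPM in WQ-2101 cells came in large part from Hilpda, at 2239 and 2041 CPM, from 217 and 103 UMIs in 99 and 48 cells. Neutrophil glycolysis stood at 6284 and 9195 CPM, a ratio of 1.46 (1.29 to 1.65), and these cells had a median of only 957 and 877 UMIs. B cells, nearly all from the WQ-2101 library (11 vehicle and 229 WQ-2101 cells), had the lowest sums there, 1986 CPM for glycolysis and 354 CPM for hypoxia. NK, endothelial and mural cells, with 8 to 31 cells in a library, lay between 5224 and 6279 CPM for glycolysis and between 578 and 932 CPM for hypoxia.

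Fibroblasts, with 158 vehicle and 60 WQ-2101 cells, had a hypoxia ratio of 1.15 (1.06 to 1.25) and a glycolysis ratio of 1.08 (1.03 to 1.12). Past 1.5-fold were 1 of 16 glycolysis members and 3 of 13 hypoxia members, beside 13.2% of all genes higher and 8.55% lower. Slc16a3 was at 48.4 and 92.7 CPM, Adm at 37.4 and 62.5 CPM and Pdk1 at 10.4 and 24.2 CPM, all higher in the WQ-2101 library. Hk1 was the lowest glycolysis member, at 39.2 and 36.3 CPM, and Ndrg1 was lower, at 266 and 147 CPM, from 434 and 73 UMIs. In dendritic cells (84 vehicle and 61 WQ-2101 cells) 4 of 16 glycolysis members and 7 of 13 hypoxia members were 1.5-fold or more higher and 3 hypoxia members lower, beside 17.9% of all genes higher and 17.7% lower. Of the dendritic members past the line, those with an interval that leaves out 1 were Pfkfb3 (66.1 and 172 CPM), Pgk1 (251 and 397), Eno1 (59.3 and 118), Ndrg1 (215 and 418), P4ha1 (55.9 and 118), Adm (no UMI in vehicle and 6 in WQ-2101 cells) and, lower, Hilpda (185 and 57.2 CPM). The others past the line were Pfkl, Egln3, Ankrd37, Pdk1 and Plod2, all higher, and Bnip3 (23.7 and 7.15 CPM) and Ero1l (37.3 and 21.4 CPM), both lower. Each of these had 15 or fewer UMIs in the WQ-2101 library. Hk1 was the lowest glycolysis member here too, at 28.8 and 17.9 CPM.

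The members also divide the cell classes. The class with the highest level was the same in both libraries for most members, while the full order of the classes often differed. Among the 5 classes with at least 200000 UMIs in each library, 7 of 16 glycolysis members were highest in macrophages in both (Slc2a1, Gpi1, Aldoa, Tpi1, Gapdh, Pgam1 and Slc16a3), 3 in tumour cells (Pfkl, Eno1 and Pkm), 2 in dendritic cells (Pfkp and Pfkfb3) and 1 in fibroblasts (Hk2). Pgk1 and Ldha were highest in macrophages in the vehicle library and in tumour cells in the WQ-2101 library, and Hk1 was highest in T cells in the first and tumour cells in the second. Of the 14 hypoxia members 5 were highest in macrophages in both (Bnip3, Egln3, Ero1l, Mxi1 and Hilpda) and 4 in fibroblasts (Adm, P4ha1, P4ha2 and Plod2). Another 4, Ankrd37, Car9, Pdk1 and Higd1a, were highest in macrophages in vehicle and in tumour cells in WQ-2101, and Ndrg1 in fibroblasts and then in dendritic cells. For Ankrd37 the macrophage level was 1.62 times the tumour level in vehicle and 0.781 times in WQ-2101, and for Pdk1 1.47 and 0.893 times.

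Of the members higher in macrophages than in tumour cells, Hilpda had the widest gap, 13.2 times as high in macrophages as in tumour cells in vehicle and 10.7 times in WQ-2101. Pfkfb3 was 5.62 and 10.0 times and Slc16a3 4.17 and 3.45 times as high in macrophages. At the other end Plod2 had a macrophage level of 0.0446 and 0.0574 times the tumour level, and P4ha2 0.249 and 0.268 times. Plod2 and P4ha2 were highest in fibroblasts, the main makers of collagen, at 170.5 and 179 CPM and 148 and 199.5 CPM.

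Pairs of genes for the same reaction were used in different proportions by class. Of the UMIs of Hk1 and Hk2 together, Hk2 took 49.7% in vehicle and 46.8% in WQ-2101 tumour cells, 62.4% and 63.9% in macrophages, 28.6% and 29.9% in T cells and 81.4% and 81.8% in fibroblasts. Pfkp took 51.5% (50.6 to 52.4, exact Clopper-Pearson interval) and 45.5% (44.8 to 46.2) of its sum with Pfkl in tumour cells, 75.8% and 73.3% in macrophages and 91.1% and 87.9% in dendritic cells. P4ha2 took 18.7% (18.2 to 19.3) and 25.4% (24.9 to 26.0) of its sum with P4ha1 in tumour cells, 8.04% and 10.8% in macrophages and 46.3% and 47.4% in fibroblasts. In tumour cells the shares of Hk1, Pfkl and P4ha2 were higher in WQ-2101. The tumour intervals rest on 10643 to 27486 UMIs of 1 library each and cover counting error only. In macrophages the intervals were 60.9 to 63.9 and 62.3 to 65.6 for Hk2. For Pfkp they were 74.8 to 76.8 and 72.3 to 74.4, and for P4ha2 7.15 to 8.99 and 9.78 to 11.9. How often other gene pairs differ as much was not counted.

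The difference in tumour cells was present within clusters as well as between them. In all 9 tumour clusters with at least 50 cells in each library, the ratio of WQ-2101 over vehicle was above 1 for both sums, 1.23 to 1.61 for hypoxia and 1.13 to 1.33 for glycolysis. The sizes of the clusters differed too. Cluster 2, with the lowest hypoxia level (751 and 990.3 CPM), held 30.2% of vehicle and 10.7% of WQ-2101 tumour cells, and cluster 3, with the highest (1556 and 1985 CPM), held 6.95% and 19.4%. The members took part in the clustering, so these sizes are a description. In macrophages the ratios were at or above 1 in all 4 such clusters, 1.09 to 1.40 for hypoxia and 1.00 to 1.11 for glycolysis. Macrophage cluster 10 had the highest sums, 3447 and 3775 CPM for hypoxia and 14706 and 14771 CPM for glycolysis.

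Depth differed between the libraries, with a median of 16830.0 UMIs in vehicle and 13772 in WQ-2101 tumour cells. Among tumour cells of 10000 to 20000 UMIs the hypoxia ratio was 1.44 and the glycolysis ratio 1.26. Among those of 20000 and over they were 1.51 and 1.26, and among those of 5000 to 10000 UMIs 1.44 and 1.40. The shallowest tumour cells, 140 and 617 cells under 5000 UMIs, departed in hypoxia only, with a ratio of 0.957 (0.885 to 1.04). Their glycolysis ratio of 1.86 had the same direction as in deeper cells and was the largest. Macrophage markers stood at 229 and 340 CPM in these shallow cells. The free RNA estimated from the macrophage markers was 5.23% of the UMIs of vehicle and 8.02% of those of WQ-2101 tumour cells, and the macrophage gene C1qa was at 23.0 and 34.7 CPM and Lyz2 at 91.1 and 82.8 CPM there. With a free RNA profile subtracted the tumour medians were 0.39 for glycolysis and 0.66 for hypoxia.

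Single cells were then ranked by their hypoxia members. Every cell was thinned at random to 3000 UMIs and shallower cells were left out (41 vehicle and 160 WQ-2101 tumour cells, 330 and 619 macrophages). A cell then had 2 or more hypoxia UMIs in 72.4% (71.2 to 73.5) of vehicle and 87.4% (86.6 to 88.1) of WQ-2101 tumour cells. Before thinning the shares were 99.4% and 98.9%, since nearly every cell at full depth reaches 2 UMIs. The share with 10 or more was 3.36% (2.92 to 3.86) and 10.1% (9.44 to 10.8), against 76.5% and 80.8% before thinning. In macrophages 10 or more were seen in 10.4% (9.43 to 11.4) and 15.1% (13.8 to 16.4), and 45.4% and 46.0% before thinning. In T cells 3 of 242 and 2 of 218 cells reached 10. No class lacks these genes, so no class gives a background share.

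**Figure D4:**
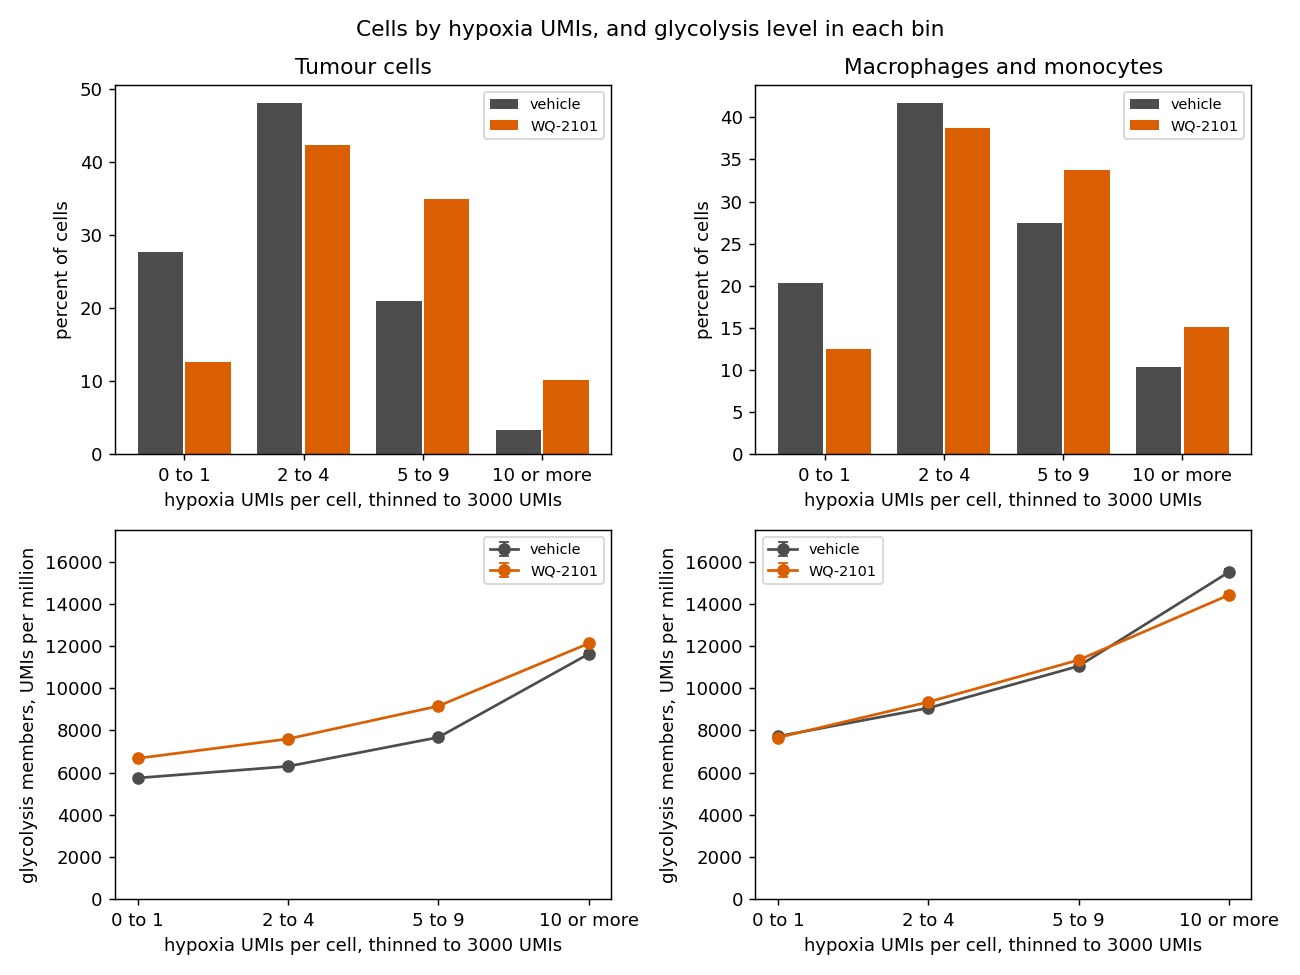
Top, percent of tumour cells and of macrophages and monocytes in each bin of hypoxia UMIs per cell after thinning to 3000 UMIs. Bottom, summed level of the 16 glycolysis members in each bin, in CPM, with Poisson 95% intervals smaller than the points. Grey is vehicle and orange WQ-2101. The glycolysis level is higher in each further bin in both classes and libraries, in vehicle tumour cells from 5747 to 11623 CPM.

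The glycolysis level, which the bins did not use, was higher in each further bin of hypoxia UMIs. In vehicle tumour cells it was 5747 CPM at 0 to 1 hypoxia UMIs, 6298 at 2 to 4, 7673 at 5 to 9 and 11623 at 10 or more. In WQ-2101 tumour cells the values were 6678, 7599, 9156 and 12120.5 CPM. In macrophages the first and last bins had 7719.7 and 15505 CPM in vehicle and 7663 and 14417 CPM in WQ-2101. Within a bin, the glycolysis ratio of WQ-2101 over vehicle in tumour cells was 1.16, 1.21, 1.19 and 1.04 from the first bin to the last, against 1.29 over all tumour cells. In macrophages it was 0.993, 1.03, 1.03 and 0.930. A bin did not hold the same hypoxia level in both libraries. In tumour cells the summed hypoxia level was 623 CPM in vehicle and 774 CPM in WQ-2101 in the first bin. In the further bins it was 922 and 1160, 1577 and 1876, and 3514 and 3612 CPM. In macrophages it was 574 and 587 CPM in the first bin and 4024 and 3950 CPM in the last. The glycolysis ratio at an equal hypoxia level was not tested. Across cells, Spearman's rho between the thinned sums was 0.30 in 5914 vehicle and 0.41 in 7749 WQ-2101 tumour cells, and 0.45 in 3956 and 0.48 in 3016 macrophages. Both sums come from the same 3000 UMIs of a cell of a single library, so these values are descriptions.

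The bins differed in other ways as well. Median depth was lower in the last bin than in the first, 18387 and 12566 UMIs in vehicle and 14977 and 11690.0 UMIs in WQ-2101 tumour cells. The proliferation gene Mki67 went from 234 to 163 CPM and from 236 to 163 CPM, and Vegfa from 121 to 266 CPM and from 135 to 279.6 CPM. Macrophage markers in these tumour cells stayed between 175 and 198 CPM in every bin. In macrophages the macrophage markers were lower in the last bin than in the first, 18028 and 11008 CPM in vehicle and 15439 and 11863 CPM in WQ-2101 cells. The part of depth and of these markers in the pattern was not tested.

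**Figure D5:**
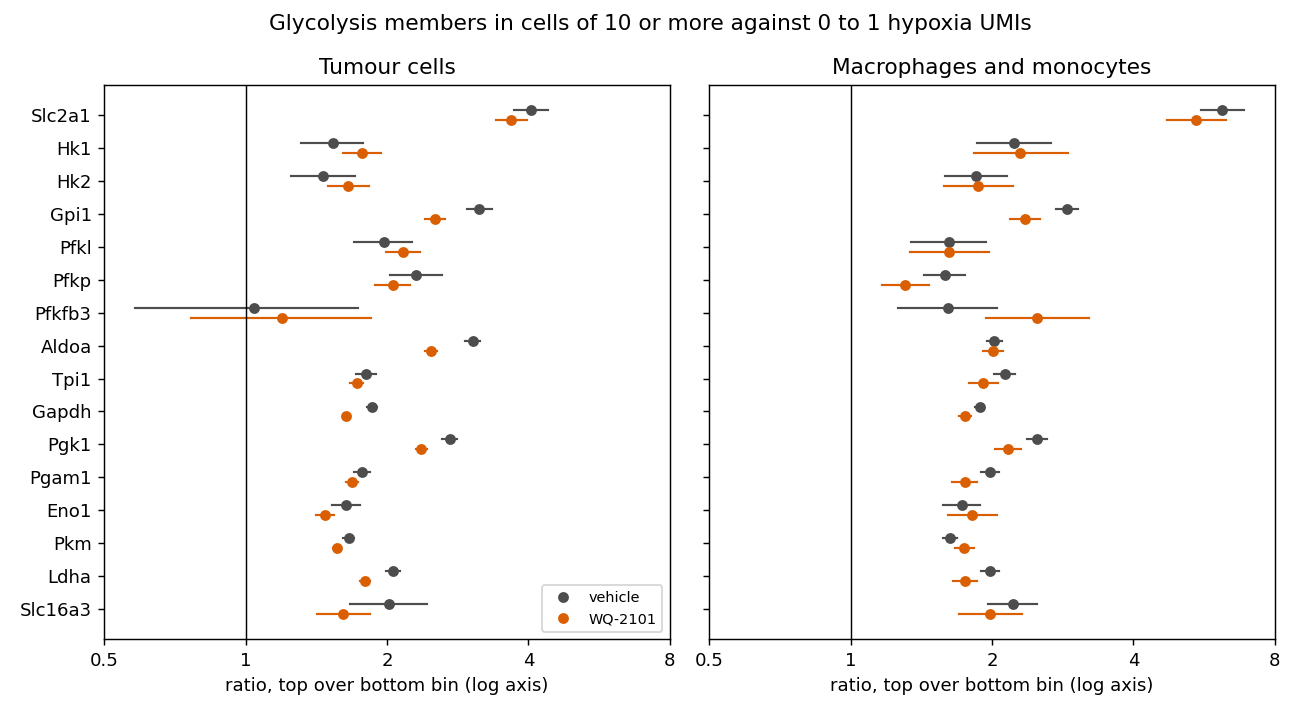
Ratio of each glycolysis member's level in cells of 10 or more hypoxia UMIs to its level in cells of 0 to 1, on a log axis, in tumour cells and in macrophages and monocytes. Grey is vehicle, orange is WQ-2101, bars are 95% intervals of counting error and the vertical line marks a ratio of 1. Slc2a1 has the highest ratio in all 4 sets, 4.05 in vehicle tumour cells and 6.19 in vehicle macrophages.

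Of the glycolysis members, Slc2a1 differed most between the bins. From the first bin to the last it went from 66.2 to 268 CPM in vehicle and from 64.5 to 238 CPM in WQ-2101 tumour cells, ratios of 4.05 and 3.68. In macrophages the ratios were 6.19 and 5.43. In tumour cells Gpi1 (3.15 and 2.53), Aldoa (3.04 and 2.48) and Pgk1 (2.72 and 2.37) came next. The hexokinases had smaller ratios, 1.53 and 1.77 for Hk1 and 1.46 and 1.66 for Hk2. Pfkfb3, scarce in tumour cells, had ratios of 1.04 and 1.19 there with intervals that hold 1, and 1.61 and 2.49 in macrophages. Pfkl, the enzyme that differed most between the libraries, had middling ratios here, 1.97 and 2.16 in tumour cells. Its ratio of WQ-2101 over vehicle was 1.51, 1.64, 1.47 and 1.66 from the first bin to the last. For Slc2a1 the same ratios were 0.974, 1.13, 1.13 and 0.886, and those of Pfkl were higher in every bin. The hypoxia levels of the libraries within a bin were not equal, as given above.

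The hypoxia members were compared with one another by binning cells on the remaining 13 members. In tumour cells Car9, at a low level, had 16.5 times the level in the last bin over the first in vehicle and 12.3 times in WQ-2101. Ankrd37 had 11.7 and 6.39 times, Ero1l 8.89 and 5.60 times, Bnip3 8.66 and 5.97 times and Egln3 6.99 and 4.74 times. Mxi1 had the smallest ratios, 1.61 and 1.42, and Hilpda had 2.63 and 2.42. The other members, Adm aside, lay between 2.25 and 5.28. In macrophages Egln3 led with 22.3 and 13.8, followed by Ankrd37 (10.6 and 6.58) and Ero1l (6.87 and 8.04), and Hilpda, higher in this class, had 4.73 and 4.99. Car9 had 7 UMIs in the last and 22 in the first bin of vehicle macrophages, a ratio of 0.730 (0.263 to 1.77), and 4.07 (1.12 to 22.3) in WQ-2101. Adm had few UMIs, and its ratios of 87.8 (20.4 to 791) and 9.23 (3.15 to 36.7) in tumour cells rested on 2 and 4 UMIs in the first bin. In macrophages its first bin held 0 UMIs in vehicle, which gives no ratio, and 1 in WQ-2101.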

How the data were processed

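The deposited values were UMI counts per gene and cell barcode, made by the authors with Cell Ranger against GRCm38. The version is 7.2.0 per the file headers and 2.2.2 per the submitters' processing notes. No barcode was under 500 UMIs. Cells were kept from 500 UMIs and 300 genes upward where 15% or less of their UMIs were mitochondrial. By these rules 22 and 6 vehicle and WQ-2101 barcodes were low, and 139 and 90 mitochondrial. Scrublet in scanpy 1.11.5 (Python 3.11.15) then removed 567 and 718 doublets. The expected rate given to it was 0.8% per 1000 cells, and it called 3.96% of barcodes in each library. Leiden clustering at resolution 1 gave 24 clusters, used for description and in the alternatives.

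Each cell was gated by its own markers: at least 3 UMIs of a class's markers, their share of the cell's UMIs above a cut, and other classes' markers below a limit. The markers were set first; the cuts were set after the marker levels had been seen. Counts were summed per class and library, with the 2 rows of Aldoa added, and divided by the class's total (CPM). Intervals of levels are exact Poisson, of ratios exact conditional and of shares exact Clopper-Pearson, at 95% (scipy 1.17.1). A member was called at 1.5-fold in either direction on log2((CPM + 5)/(CPM + 5)), where its mean reached 5 CPM. Classes under 50 cells in a library are given by summed level only, except for Hilpda in neutrophils.

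The 30 members, the related lists and the tests were chosen with earlier results of these data known. All members past the minimum in tumour cells were named with both levels, and elsewhere those past 1.5-fold and the highest and lowest of each list. In dendritic cells some members past 1.5-fold were given by name and direction only. Other macrophage members were added for completeness. Of other genes, members of the related lists past 1.5-fold and the 10 with the largest fold between hypoxia bins were named. Hif1a, Egln1, Eno1b, Vegfa, Angptl4, Loxl2 and Mki67 were added after their values were seen. Alternatives covered scaling, cell filters, gates, doublets, free RNA, cluster shares, cell weights and thinning; those on cells of 10000 to 20000 UMIs, on 10 or more hypoxia UMIs and without the mixed cluster were chosen after seeing the data. The scripts were tested on simulated data. Promoter sequences come from RefSeq tables of GRCm38.p6. Results for some listed genes are not reported here.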

Additional observations from a re-analysis of the deposited data

Results flagged for a closer look

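Pgam1, the mutase that competes with serine synthesis for its substrate, differed in direction between cell classes. Its log2 ratio of WQ-2101 over vehicle was 0.15 in tumour cells and 0.31 in T cells, both higher in the WQ-2101 library, and -0.049 in macrophages and monocytes, lower there. The intervals of the ratios, which cover counting error only, were 1.10 to 1.13 in tumour cells, 1.09 to 1.42 in T cells and 0.948 to 0.985 in macrophages. A change of direction was not particular to Pgam1. Pkm had log2 ratios of 0.23 in tumour cells, 0.13 in T cells and -0.017 in macrophages. Hk1 and Mxi1 were higher in WQ-2101 tumour cells and macrophages and lower in T cells, at -0.083 and -0.18. With 1 library per group the difference between the classes was not tested.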

How the results depend on the processing

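Each median kept its sign under all 14 alternatives tried for it. In tumour cells it ran from 0.31 to 0.41 for glycolysis and from 0.48 to 0.68 for hypoxia, and in macrophages from 0.15 to 0.23 and 0.33 to 0.48. With a stricter minimum on own markers the hypoxia median was 0.61, against 0.65, and in macrophages 0.48 against 0.35. Where each cluster had an equal share in both libraries, the tumour medians were 0.31 for glycolysis and 0.48 for hypoxia, the macrophage hypoxia median was 0.43, and 3 hypoxia members were past 1.5-fold in tumour cells in place of 7. The cause was not tested. Weighting cells alike gave a tumour hypoxia median of 0.61, dropping the minimum on members 0.54, and keeping cells of 10000 to 20000 UMIs, chosen after seeing the data, 0.56. Median-of-ratios scaling moved all log2 ratios by 0.03 in tumour cells, and 2 glycolysis members were then past 1.5-fold in place of 1, the second being Pgk1. In macrophages the count of hypoxia members past 1.5-fold was 0 in 4 alternatives, 2 with cells weighted alike and 1 in the others, and that of glycolysis members 1 or 2. Of the members past the minimum in tumour cells, 15 of 15 glycolysis and 11 of 12 hypoxia members kept their sign in every alternative; Hilpda did not, and lay at -0.13 with equal cluster shares. The share of tumour cells with 2 or more hypoxia UMIs depends on depth and minimum by construction: vehicle 55.9% and WQ-2101 73.2% at 2000 UMIs, 89.5% and 96.6% at 5000, 52.6% and 73.6% for 3 or more, and 3.36% and 10.1% for 10 or more (added later). No replicate could be left out, since each group is 1 library. No paired analysis was possible because each group has 1 library and the labels give no shared replicate numbers. Depth limits Car9 in all 5 classes described by member, and Adm in tumour cells, macrophages and T cells.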

Other observations

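Genes outside the set were compared between the bins of hypoxia UMIs. Among genes with at least 20 CPM in the last bin of both libraries, the 10 with the largest fold of the last bin over the first, taking the lesser of the libraries' folds after adding 5 CPM to both levels, were in tumour cells 4930447F24Rik, Ankrd44, Mt1, Mt2, Hmox1, Prelid2, Cryab, Crebrf, Prdm1 and Egln1. Their lesser folds ran from 4.26 down to 2.70, where the median over all such genes was 0.951. The metallothionein Mt1, which binds zinc and other metals, was at 1178 CPM in the first and 5299 CPM in the last bin of vehicle cells, and at 2008 and 7367 CPM in WQ-2101 cells. Hmox1, which degrades haem, was at 9.76 and 37.1 CPM and at 9.13 and 37.98 CPM. In macrophages the 10 genes were Cxcl3, Mmp13, Gpnmb, Tnfrsf9, Inhba, Serpinb2, Mmp12, Dach1, Npy and Areg, with lesser folds from 9.36 down to 6.70 and a median over all such genes of 0.867. Cxcl3 is a chemokine for neutrophils, and Mmp12 and Mmp13 are matrix proteases. These are descriptions of the cells of these libraries.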
